A study of Homo sapiens with 27 samples.

Results

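The integrated stress response genes ATF4, ATF3, ATF5, DDIT3, TRIB3, CHAC1, CEBPB, CEBPG, PPP1R15A and VLDLR were followed across 501mel human melanoma cells that had been starved of amino acids, treated with an mTOR kinase inhibitor, or deprived of the transcription factors TFE3 and TFEB. The members were listed by symbol as known genes of the pathway, with no threshold on their measured values, but with earlier results of these data known. All 10 were present among the 13523 genes of the normalised 3′ end RNA-seq table. 501mel is an established melanoma line in which the melanocyte regulator MITF is abundant. TFE3 and TFEB are relatives of MITF that mTORC1 holds in the cytoplasm when nutrients are plentiful. The comparisons ask how the stress response genes answer to nutrient loss and to mTOR inhibition, and whether TFE3 and TFEB bear on their levels.

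Parental cells (WT, both genes intact) were left untreated (CTRL, 3 libraries), kept for 12 h in HBSS, a glucose-containing salt solution without amino acids (2 libraries), or treated for 12 h with 250 nM Torin1, here Torin (2 libraries). TFE3 KO, TFEB KO and TFE3 plus TFEB double KO (DKO) cells were each measured after 12 h without drug (CTRL) and after 12 h with 250 nM Torin, with 3 libraries per group, and no knockout was placed in HBSS. All groups shared the same parental line, which was grown in medium with 10% serum. In the HBSS group the salt solution took the place of the whole medium for 12 h. Loss of amino acids and loss of other parts of the medium therefore cannot be told apart. The knockouts were made by CRISPR-Cas9 and expanded from single cells, and each genotype was 1 clone, so that clone and genotype cannot be told apart. The WT control is labelled as non-treated and the knockout controls as 12 h CTRL, and both are called untreated here. Between untreated knockout and WT cells, genotype and this difference in control therefore cannot be told apart. The same holds where the Torin response of a knockout is set against that of WT. Of 27 labelled libraries, 25 were used, because the columns of HBSS replicate 3 and Torin replicate 1 held identical values. Nothing given with these 2 columns says which label is right. Nothing in the labels says that the libraries of a group came from separate cultures, so the p-values measure the spread between these samples, which may be technical.

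The libraries held 4147050 to 6526392 reads, and 12895 to 13414 genes were detected in each. At this depth a count of 3 reads, the floor used here, corresponded to a normalised read count of 0.460 to 0.711, and every member lay above it in every library. Melanocyte genes were abundant throughout, with MITF at 532 to 1454 and PMEL, a melanosome structural protein, at 1938 to 4464 normalised read counts. Their summed level moved with HBSS. The 10 melanocyte markers summed to 14658 and 14821 in HBSS, 6458 to 6657 in WT CTRL and 8421 to 8670 in WT Torin. The markers did not all move together. In HBSS all but S100B were above every WT CTRL library, S100B was below them, and DCT gained most in normalised read count. With Torin TYR and DCT were below every WT CTRL library, and MITF and S100B lay within the WT CTRL range. The other markers were above it. In HBSS MITF rose by 0.90 on the log2 scale (adjusted p = 1.55e-15) and TFEB by 2.85 (adjusted p = 4.43e-09). The part of these genes in the results was not tested. The leukocyte markers PTPRC, CD3E, CD14 and LYZ were not among the genes of the table, and CD68, which also encodes a lysosomal protein, was at 29.5 to 43.5 in WT CTRL, 50.6 to 63.0 in HBSS and 53.4 to 62.8 in WT Torin. Its part in the results was not tested. The 2 of 6 fibroblast markers in the table, COL1A1 and LUM, summed to 0.208 to 6.62 over all libraries, and none of 5 epithelial markers was in the table. TFE3 was lower than in WT CTRL in TFE3 KO cells (log2 fold change -1.79, adjusted p = 4.6e-11) and in DKO cells (-1.77, adjusted p = 4.74e-11), and TFEB was lower in TFEB KO (-1.02, adjusted p = 0.0249), DKO (-1.38, adjusted p = 0.00187) and also TFE3 KO cells (-1.41, adjusted p = 0.00185). TFEB was near the floor, at 2.34 to 3.96 in WT CTRL, 0.750 to 1.66 in TFEB KO CTRL, 0.156 to 1.05 in DKO CTRL and 0.177 to 1.56 in TFE3 KO CTRL, so its changes rest on few reads. Reads from the 3′ end can come from an edited transcript that is still made, so the TFE3 and TFEB values are a partial check of the labels.

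The integrated stress response is set off when one of the kinases that sense amino acid loss, unfolded protein, viral RNA or heme lack phosphorylates the translation factor eIF2. Bulk protein synthesis then slows, while the mRNAs of ATF4, ATF5 and a few others, which carry upstream reading frames, are translated better. ATF4 pairs with other bZIP proteins, above all members of the C/EBP family, on C/EBP-ATF response elements and switches on genes for amino acid uptake, amino acid synthesis and tRNA charging, as well as DDIT3 and TRIB3. PPP1R15A closes the loop by bringing a phosphatase to eIF2. In melanoma cells ATF4 is known as a regulator that lowers MITF and favours invasive behaviour. mTORC1 activity is itself known to raise ATF4 protein.

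The promoter sequence of 5 members is shown because it holds one of the motifs searched for. Each run is the 250 bases before a transcription start site, 5′ to 3′ in the direction of the gene, from RefSeq (GRCh38.p14). Capitals mark TGATGNAA, the core of the C/EBP-ATF response element, read on the reverse strand in CHAC1, then TGACGTCA, the cAMP response element, in PPP1R15A, and CACGTG, the E box bound by MITF, TFE3 and TFEB, in ATF4.
CHAC1: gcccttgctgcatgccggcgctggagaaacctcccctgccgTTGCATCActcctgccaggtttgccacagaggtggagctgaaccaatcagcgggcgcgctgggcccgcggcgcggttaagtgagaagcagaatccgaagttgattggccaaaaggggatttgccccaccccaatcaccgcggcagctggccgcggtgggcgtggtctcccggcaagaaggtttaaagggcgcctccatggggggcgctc
ATF3: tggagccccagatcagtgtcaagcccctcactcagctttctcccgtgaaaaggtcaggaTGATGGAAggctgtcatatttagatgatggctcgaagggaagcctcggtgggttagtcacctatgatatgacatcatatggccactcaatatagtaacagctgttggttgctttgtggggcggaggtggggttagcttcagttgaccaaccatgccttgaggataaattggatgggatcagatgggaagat
CEBPG: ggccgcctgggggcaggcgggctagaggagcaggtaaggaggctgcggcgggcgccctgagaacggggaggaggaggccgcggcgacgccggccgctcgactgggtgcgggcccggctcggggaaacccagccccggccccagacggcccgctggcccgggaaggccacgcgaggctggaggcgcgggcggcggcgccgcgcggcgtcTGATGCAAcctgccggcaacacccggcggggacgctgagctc
PPP1R15A: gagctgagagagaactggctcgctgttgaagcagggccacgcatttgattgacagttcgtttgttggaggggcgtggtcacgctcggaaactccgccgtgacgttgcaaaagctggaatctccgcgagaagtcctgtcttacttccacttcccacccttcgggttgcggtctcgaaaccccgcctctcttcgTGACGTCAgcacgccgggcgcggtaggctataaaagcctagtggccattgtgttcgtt
ATF4: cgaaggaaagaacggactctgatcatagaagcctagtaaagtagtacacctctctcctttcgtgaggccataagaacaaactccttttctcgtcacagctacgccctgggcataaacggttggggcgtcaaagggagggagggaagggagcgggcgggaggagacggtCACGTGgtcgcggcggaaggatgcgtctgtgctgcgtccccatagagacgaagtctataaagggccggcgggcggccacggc

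The runs lie at chr15:40953221-40953470 for CHAC1, chr1:212565157-212565406 for ATF3, chr19:33373863-33374112 for CEBPG, chr19:48872171-48872420 for PPP1R15A and chr22:39520309-39520558 for ATF4, all on the plus strand. ATF3 and CEBPG have 2 annotated start sites in RefSeq, and the run shown belongs to the upstream site of ATF3 and to the downstream site of CEBPG. Of the 2 start sites of ATF4, which lie close together, the upstream one is shown. All 10 members matched, with 19 windows of 300 bases (250 before and 50 from the start site) among 35116 windows. Both strands were searched. TGATGNAA was found for 3 of the 10 members, at -209 in CHAC1, -191 in ATF3 and -42 in CEBPG (first base counted from the start site), and 4.46% of all 27305 genes held it. TGACGTCA was found for PPP1R15A at -58, against 2.25% of all genes, and CACGTG for ATF4 at -82, against 8.77% of all genes. The 8-base form TCACGTGA, held by 1.18% of all genes and containing CACGTG, and the ER stress response element, held by 0.0916%, were in no member's window. A match describes letters only. Matches were counted once per gene.

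All 10 members rose in HBSS. A gene is said to rise or fall here when its adjusted p (limma on log2 of the normalised read count + 1, Benjamini-Hochberg over 13052 genes) was below 0.05, and is called when its log2 fold change also reached 1 in size. In HBSS against WT CTRL 8 of 10 members were called higher and none lower, where 6.9% of all genes tested were called higher and 6.2% lower. By adjusted p alone 48.3% of all genes passed in either direction. The median log2 fold change of the members was 1.84, and that of all genes was -0.03. For all 10 members the HBSS and CTRL ranges did not overlap, which was so for 63.1% of all genes. In bulk RNA a change in the number of responding cells and a change per cell cannot be told apart. The count of called members was 8 with each library left out in turn, and also 8 when the identical column was added to the HBSS group.

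ATF4, the regulator at the head of the response, had normalised read counts of 400, 381 and 400 in WT CTRL and of 1412 and 1474 in HBSS. Both starved libraries stood far above the other 23 libraries used, where the highest had 525. The log2 fold change was 1.87 ± 0.072 (SE), adjusted p = 5.05e-26. ATF4 lies at chr22:39519695-39522683 (hg38, GENCODE v44) and has 4 named pseudogenes, and how reads shared with them were counted is not given in the sources used here.

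Of the factors that act with or below ATF4, DDIT3 (CHOP), a dimer partner of the C/EBP proteins linked to cell death under lasting stress, had 34.5, 36.4 and 35.5 normalised read counts in CTRL and 125 and 120 in HBSS. ATF3, a stress-induced repressor and activator, had 8.71, 5.54 and 9.37 in CTRL and 43.0 and 35.4 in HBSS. The spread between CTRL libraries was wider for ATF3 than for DDIT3, and in both genes the 2 groups were far apart. Their log2 fold changes were 1.76 ± 0.13 (SE, adjusted p = 2.3e-16) for DDIT3 and 2.20 ± 0.23 (SE, adjusted p = 2.5e-11) for ATF3. The last exon of DDIT3 shares 63 bases with MARS1 on the opposite strand, and whether counting used the strand is not given in the sources used here.

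CEBPB and CEBPG encode C/EBP proteins that pair with ATF4. CEBPB had 53.9, 46.9 and 44.5 normalised read counts in CTRL and 177 and 165 in HBSS, and CEBPG had 27.0, 18.0 and 17.6 in CTRL and 99.2 and 85.8 in HBSS. One CTRL library was high for CEBPG, and it was still far below the starved libraries. The log2 fold changes were 1.80 ± 0.15 (SE, adjusted p = 1.78e-14) for CEBPB and 2.12 ± 0.22 (SE, adjusted p = 1.69e-11) for CEBPG. CEBPB shares 231 bases of its single exon with the antisense gene CEBPB-AS1. ATF5, a factor whose translation is controlled like that of ATF4, had 22.8, 20.2 and 18.1 in CTRL and 29.5 and 28.7 in HBSS. It rose by a smaller step, 0.50 ± 0.17 (SE, adjusted p = 0.0136), and was not called. Without WT CTRL replicate 3, HBSS replicate 1 or HBSS replicate 2 its adjusted p was 0.0629, 0.0777 and 0.0558.

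Among the effectors CHAC1, which degrades glutathione, moved furthest. It had 8.38, 5.74 and 10.3 normalised read counts in CTRL and 112 and 89.6 in HBSS, a log2 fold change of 3.50 ± 0.25 (SE, adjusted p = 2.23e-16), or 11.3-fold on the (count + 1) scale. TRIB3, a pseudokinase that restrains AKT and ATF4, had 92.7, 89.1 and 98.7 in CTRL and 410 and 370 in HBSS. PPP1R15A (GADD34), the phosphatase subunit that resets eIF2, had 44.4, 50.7 and 54.1 in CTRL and 160 and 173 in HBSS. For these 3 genes both starved libraries were above the other 23 libraries used. The log2 fold changes were 2.05 ± 0.11 (SE, adjusted p = 1.19e-20) for TRIB3 and 1.73 ± 0.12 (SE, adjusted p = 3.69e-17) for PPP1R15A. VLDLR, a lipoprotein receptor and ATF4 target, had 11, 8.71 and 6.05 in CTRL and 14.3 and 14.7 in HBSS. It rose by 0.72 ± 0.24 (SE, adjusted p = 0.01) and was not called. Its adjusted p was 0.0906 without WT CTRL replicate 3 and 0.0609 without HBSS replicate 2, and its last exon shares 539 bases with an antisense lncRNA (ENSG00000286670).

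**Figure D1:**
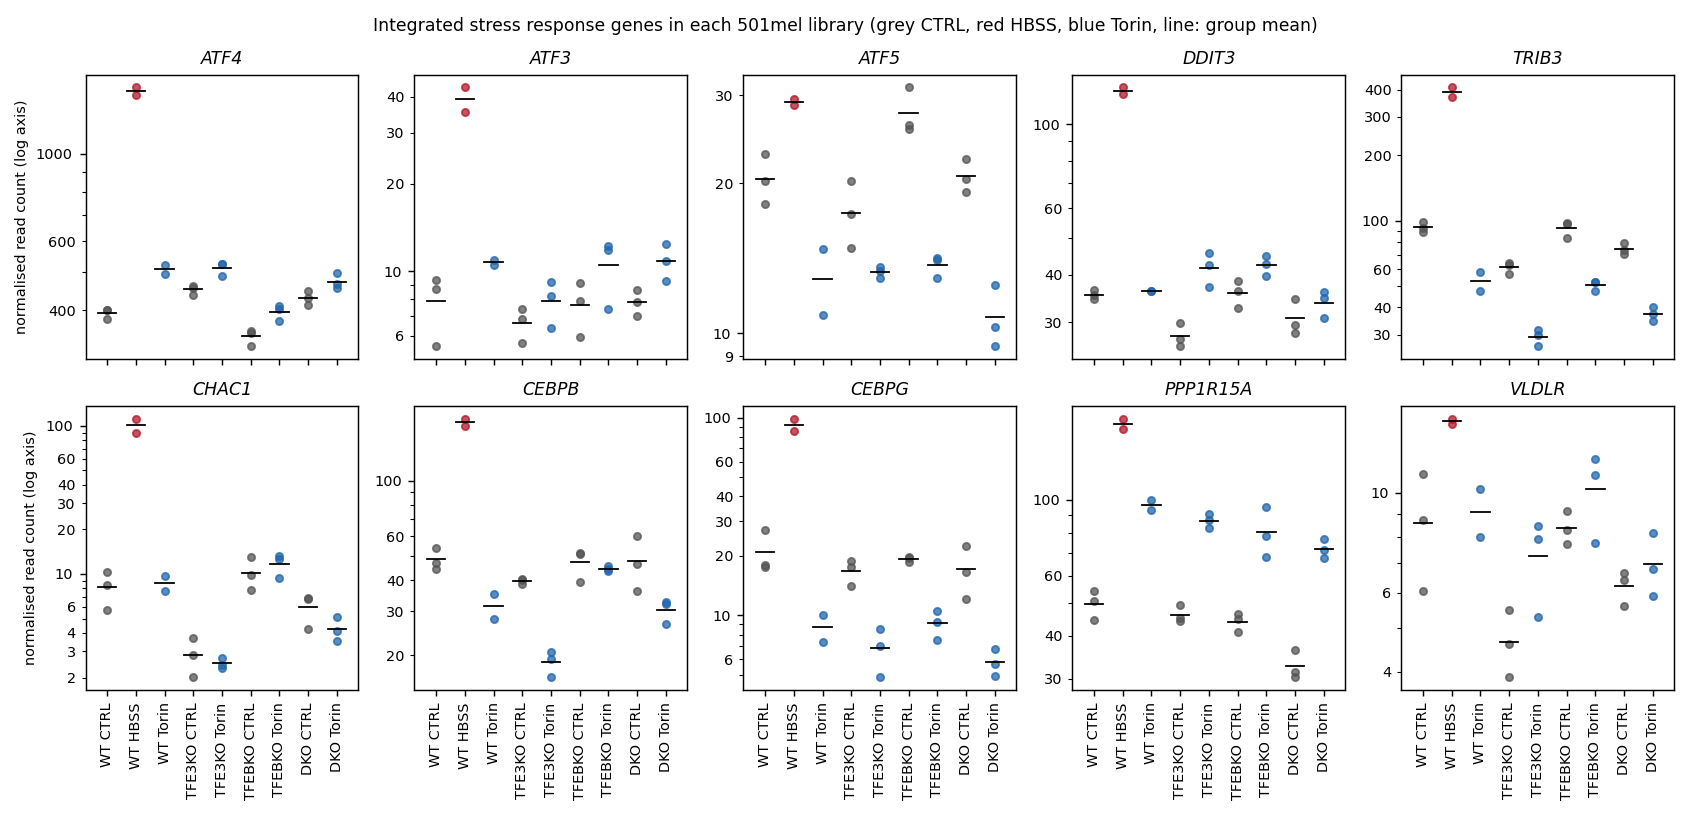
Normalised read count of each member (log axis, one panel per gene) in every library of the 9 groups, with grey points for CTRL, red for HBSS, blue for Torin, and a line for the group mean. The 2 HBSS libraries stand above all others in 9 panels, and for ATF5 they overlap the TFEB KO CTRL libraries (25.7 to 31.1).

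The wider pathway in HBSS was read from 7 gene lists. Of all genes 48.3% passed by adjusted p in either direction, 6.9% were called higher and 6.2% lower. Of 13 genes for tRNA charging and tRNA export all 13 rose and 8 were called higher, with a median log2 fold change of 1.06. The leading 3 were the glycyl-tRNA synthetase GARS (1.68), the tRNA exporter XPOT (1.68) and the seryl-tRNA synthetase SARS (1.498). Of 11 amino acid synthesis genes 6 were called higher and none lower (median 1.14), led by CTH (2.15) of the cysteine pathway, the asparagine synthetase ASNS (2.14) and the serine enzyme PSPH (1.81). Among 9 amino acid transporters 3 were called higher (median 0.86), namely the glutamine carrier SLC38A2 (1.83), the arginine carrier SLC7A1 (1.32) and SLC3A2 (1.04), the chain that pairs with SLC7A5 and SLC7A11. Of 11 growth brake, secreted and survival targets 8 were called higher (median 1.20), with the death gene BBC3 at 4.16, the mTORC1 inhibitor SESN2 at 3.47 and the bZIP repressor JDP2 at 2.46. All named genes of these lists had adjusted p values between 2.24e-33 and 2.64e-07.

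The other lists hold genes that are not classed here as ATF4 targets. Of 18 genes for the eIF2 kinases, eIF2, eIF2B and their regulators 1 was called higher, PPP1R15B, the constitutive counterpart of PPP1R15A (1.13, adjusted p = 5.49e-08), and 1 lower, the eIF2B subunit EIF2B3 (-1.48, adjusted p = 2.11e-13). Of 29 other bZIP genes 4 were called higher and 2 lower, and the 3 furthest were BATF3 (-2.52), FOSL1 (-2.29) and the circadian factor DBP (1.82). For both lists the shares over all genes were 6.9% called higher and 6.2% lower. Of 18 ER folding and unfolded protein response genes 1 was called higher and 6 lower, with a median of -0.60, and the ER factors SDF2L1 (-2.34), MANF (-1.86) and CRELD2 (-1.82) led. The members and the lists of their targets had medians between 0.86 and 1.84 in starved cells, against -0.60 for the ER list and -0.03 for all genes.

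**Figure D2:**
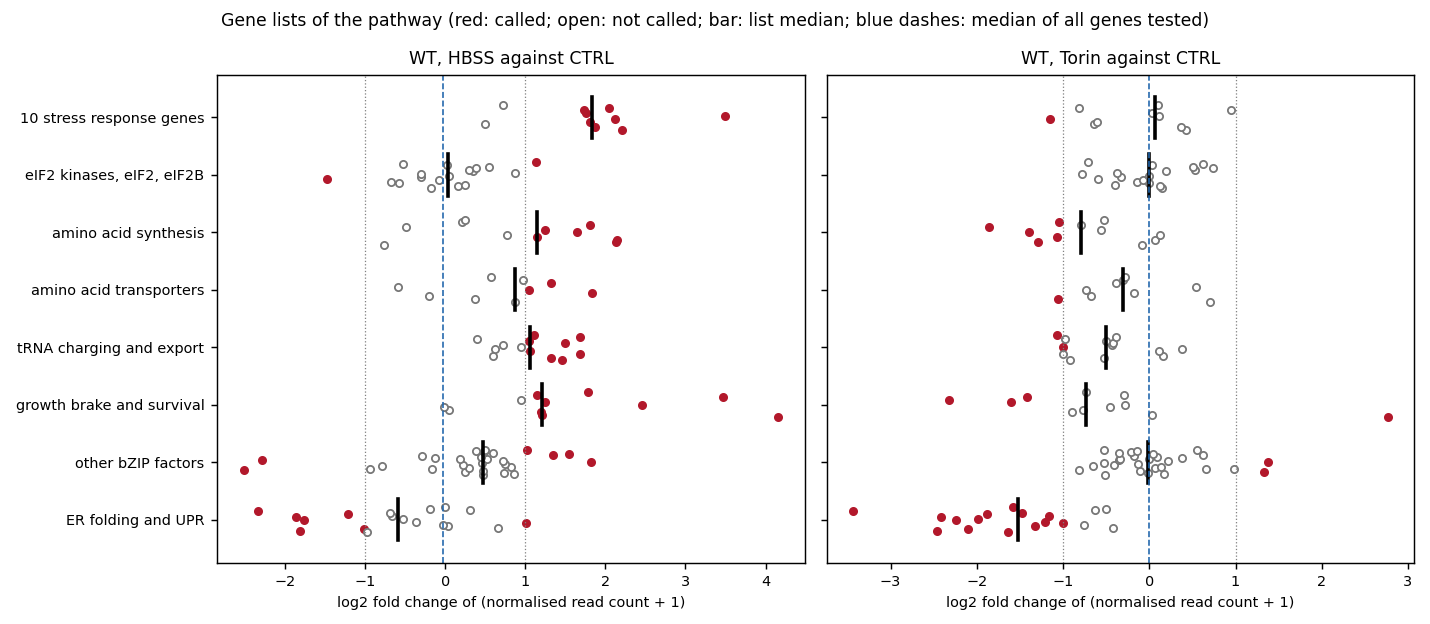
Log2 fold change in WT cells of the 10 members and of 7 gene lists, HBSS on the left and Torin on the right, with red points for called genes, bars for list medians and blue dashes for the median of all 13052 genes. The member median lies at 1.84 in HBSS and at 0.06 with Torin, and the ER list at -0.60 and -1.53.

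Torin gave another picture, in which the members moved in both directions. In WT cells 0 of 10 members were called higher and 1 was called lower, where 5.66% of all genes were called higher and 4% lower. By adjusted p alone, ATF4 and PPP1R15A rose and ATF5, TRIB3, CEBPB and CEBPG fell. These are 6 of 10 members, where 43.9% of all genes passed in either direction. The median log2 fold change of the members was 0.06. These values rest on 2 Torin libraries. With the identical column added to them, 2 members were called, ATF3 (1.05) and PPP1R15A (1.19), both higher, and CEBPG was at -0.20. In that fit TRIB3 (0.15, adjusted p = 0.833) and CEBPB (0.095, adjusted p = 0.863) turned in sign, and ATF5 was at -0.24 (adjusted p = 0.401).

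ATF4 had 522 and 495 normalised read counts with Torin, above the 381 to 400 of WT CTRL, and rose by 0.37 ± 0.072 (SE, adjusted p = 3.8e-05). PPP1R15A had 93.3 and 99.5 with Torin and 44.4 to 54.1 without, and rose by 0.95 ± 0.12 (SE, adjusted p = 4.72e-09). It passed a log2 fold change of 1 by edgeR (1.02) and DESeq2 (1.003) on the recovered reads and without WT CTRL replicate 3 (1.008). In both genes the Torin libraries lay between the untreated and the starved ones.

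The C/EBP genes went the other way. CEBPG had 10.1 and 7.35 normalised read counts with Torin and 17.6 to 27.0 without, and fell by 1.16 on the log2 scale (SE 0.22, adjusted p = 2.08e-05). It was the only member called in WT cells, and without WT CTRL replicate 1 or without Torin replicate 3 the log2 fold change was -0.97 and -0.95. CEBPB had 27.9 and 35.3 with Torin and 44.5 to 53.9 without, and fell by 0.61 (SE 0.15, adjusted p = 7.39e-04); without Torin replicate 2 the adjusted p was 0.0581. TRIB3 had 58.1 and 47.4 with Torin and 89.1 to 98.7 without, and fell by 0.82 (SE 0.11, adjusted p = 3.29e-08). ATF5 had 14.8 and 10.9 with Torin and 18.1 to 22.8 without, and fell by 0.64 (SE 0.17, adjusted p = 0.00197), with an adjusted p of 0.106 without Torin replicate 3. In all 4 genes the 2 Torin libraries were below every WT CTRL library, and Torin and CTRL ranges were apart for 7 of 10 members against 60.2% of all genes, so that separation is close to the background. For the other members no change passed the test, with log2 fold changes and 95% confidence intervals of 0.43 (-0.03 to 0.89) for ATF3, 0.03 (-0.22 to 0.29) for DDIT3, 0.11 (-0.39 to 0.62) for CHAC1 and 0.10 (-0.38 to 0.57) for VLDLR.

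The knockout cells were treated with the same dose for the same time. In TFE3 KO cells 0 members were called higher and 3 lower (backgrounds 6.98% and 4.69%), in TFEB KO cells 0 and 1 (3.36% and 1.65%), and in DKO cells 1 and 1 (6.83% and 4.29%). By adjusted p alone 8, 5 and 5 members passed in either direction, against 51.4%, 38.3% and 51.6% of all genes. CEBPG was called lower in every genotype, by 1.21 in TFE3 KO, where it had 17.7, 14.1 and 18.9 untreated and 7, 4.90 and 8.53 with Torin, by 1.02 in TFEB KO and by 1.38 in DKO cells. TRIB3 fell in every genotype, by 1.03 in TFE3 KO, 0.85 in TFEB KO and 0.98 in DKO cells, and reached the call in TFE3 KO cells. PPP1R15A rose in every genotype, by 0.90 in TFE3 KO, 0.85 in TFEB KO and 1.12 in DKO cells, and was called in DKO cells, from 30.4, 36.4 and 31.3 untreated to 67.5, 77.0 and 71.2 with Torin. ATF5 fell by 0.96 in TFEB KO and 0.89 in DKO cells. In TFE3 KO cells it was at -0.36 (adjusted p = 0.0440), and the test was lost in 5 of 6 fits without a library and with edgeR, DESeq2 and median-of-ratios scaling (adjusted p = 0.0585 to 0.0702). Treated and untreated libraries did not overlap for TRIB3, CEBPG, PPP1R15A and ATF5 in any genotype, where such a gap was found for 58.4% of all genes in TFE3 KO, 47.2% in TFEB KO and 57.1% in DKO cells.

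CEBPB fell by 1.04 in TFE3 KO cells, from 38.5, 40.3 and 39.9 untreated to 20.6, 19.4 and 16.4 with Torin, and by 0.61 in DKO cells. In TFEB KO cells it had 39.4, 51.2 and 50.7 untreated and 45.5, 43.3 and 44.4 with Torin, overlapping groups with a log2 fold change of -0.07 (adjusted p = 0.698). ATF4 rose by 0.18 (adjusted p = 0.0163) in TFE3 KO and 0.20 (adjusted p = 0.00946) in TFEB KO cells, and was at 0.13 (adjusted p = 0.0779) in DKO cells. DDIT3 rose by 0.57 (adjusted p = 2.92e-05) and VLDLR by 0.53 (adjusted p = 0.0344) in TFE3 KO cells. Leaving out a library ended the test for VLDLR in 4 of 6 fits, and for ATF4 in 3 of 6 in TFE3 KO and 2 of 6 in TFEB KO cells. Some calls turned on a single library. TRIB3 in TFE3 KO cells was at -0.998 without CTRL replicate 3 and -0.97 without Torin replicate 2, CEBPB in TFE3 KO cells at -0.95 without Torin replicate 3, and CEBPG in TFEB KO cells at -0.998 without CTRL replicate 2 and -0.90 without Torin replicate 3, each just short of the call. In DKO cells TRIB3 reached -1.02 without CTRL replicate 3 and -1.03 without Torin replicate 1.

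**Figure D3:**
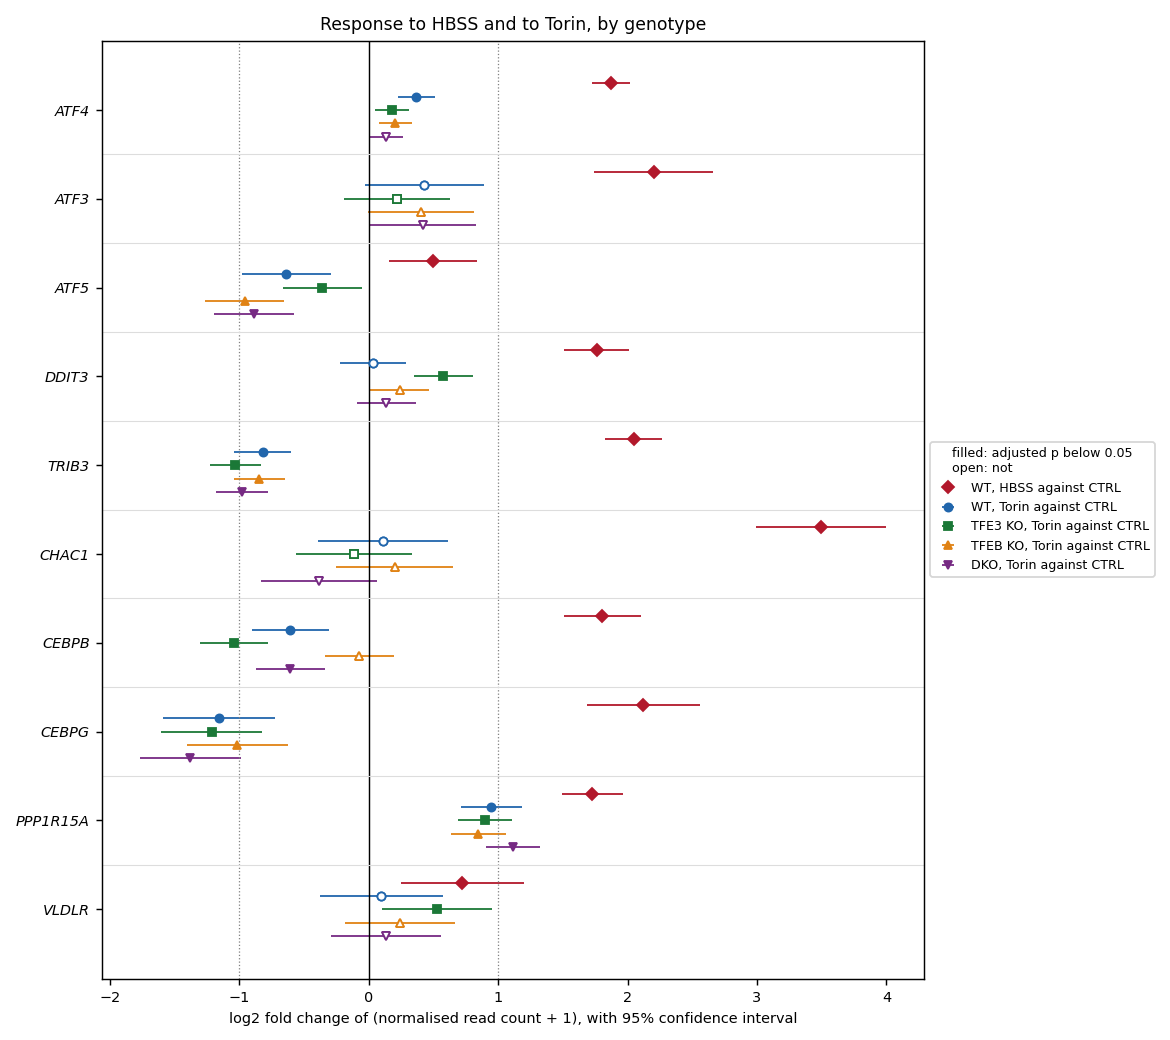
Log2 fold change with its 95% confidence interval for each member in HBSS (WT, red diamonds) and with Torin in WT (blue), TFE3 KO (green), TFEB KO (orange) and DKO cells (purple), filled where the adjusted p was below 0.05. CEBPG and TRIB3 lie left of 0 with Torin in all 4 genotypes and right of 2 in HBSS, and PPP1R15A lies right of 0 in every comparison.

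Whether the response to Torin differed between a knockout and WT was tested for each member as a difference of 2 log2 fold changes. The controls were labelled non-treated in WT and 12 h CTRL in the knockouts, so genotype and kind of control cannot be told apart. No member passed for TFE3 KO, TFEB KO or DKO, where 1.06%, 1.16% and 0.506% of all genes passed. Of all genes 0.276%, 0.207% and 0.161% were called, in the same order. By edgeR and DESeq2 on the recovered reads 0 members were called. At an unadjusted p below 0.05 there were 2 members for TFE3 KO, 1 for TFEB KO and 1 for DKO. Of all 13052 genes 1402, 1771 and 1282 reached this, in the same order. The furthest were DDIT3 in TFE3 KO cells, at 0.54 (95% confidence interval 0.20 to 0.88, adjusted p = 0.126), and CEBPB in TFEB KO cells, at 0.53 (0.13 to 0.93, adjusted p = 0.186). Over all members the differences lay between -0.50 and 0.54. For TRIB3 the intervals were -0.51 to 0.08 for TFE3 KO, -0.32 to 0.27 for TFEB KO and -0.46 to 0.14 for DKO.

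HBSS and Torin were also compared directly in WT cells. All 10 members were higher in HBSS and 8 were called higher, none lower (background 6.95% higher and 9.64% lower), with a median log2 difference of 1.75. By adjusted p alone 49.2% of all genes passed in either direction. CHAC1 (3.39), CEBPG (3.28), TRIB3 (2.87) and CEBPB (2.41) differed most, and PPP1R15A (0.78) and VLDLR (0.63, adjusted p = 0.0420) passed without a call. The test of VLDLR was lost in 3 of 4 fits without a library. In the lists of targets the difference was of the same sign, with 10 of 13 tRNA charging and export genes (median 1.84), 9 of 11 growth brake and survival genes (median 2.09), 8 of 11 amino acid synthesis genes (median 1.80) and 5 of 9 transporters (median 1.28) called higher in HBSS. Among the transporters 1 was called lower. Both comparisons against WT CTRL share its 3 libraries. ATF5 was at 0.93 without Torin replicate 3, which left 7 called members, and with the identical column added to Torin 6 were called.

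Part of the set was lower in untreated TFE3 KO cells. By adjusted p alone 5 of 10 members passed in TFE3 KO against WT CTRL, where 9.41% of all genes passed in either direction. In this comparison 1 of 10 members was called, CHAC1 (background 1.52% in either direction). It had 2.83, 3.68 and 2.03 normalised read counts in TFE3 KO and 5.74 to 10.3 in WT cells, and fell by 1.24 (SE 0.22, adjusted p = 7.25e-05). TRIB3 had 56.7, 62.4 and 64.1 against 89.1 to 98.7 and fell by 0.61 (adjusted p = 1.11e-05). The TFE3 KO libraries were below all WT libraries for both genes, and the ranges of 27.5% of all genes were apart in this comparison. VLDLR (-0.74, adjusted p = 0.0179) and DDIT3 (-0.35, adjusted p = 0.0389) also fell, while ATF4 had 462, 439 and 457 against 381 to 400 and rose by 0.20 (adjusted p = 0.0378). The test for these last 3 genes was lost in 4 (VLDLR), 5 (DDIT3) and 5 (ATF4) of the 6 fits that left out a library of these groups.

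TFEB KO cells differed less from WT CTRL, with 0 members called (background 1.67%) and 0 called by edgeR and by DESeq2. At an unadjusted p below 0.05 there were 2 members, against 3607 of all 13052 genes. By adjusted p 1 member passed, against 14.6% of all genes. ATF4 had 352, 355 and 326 and fell by 0.19 (adjusted p = 0.0320), a test that was lost in 4 of 6 fits without a library and with edgeR (adjusted p = 0.0624), and CHAC1 had 9.79, 12.9 and 7.79, a log2 fold change of 0.29 (95% confidence interval -0.16 to 0.74). ATF5 had 25.7 to 31.1 against 18.1 to 22.8 in WT CTRL and did not pass in the main fit. It passed with edgeR (0.45, adjusted p = 0.0316), DESeq2 (0.44, adjusted p = 0.0469) and a minimum of 5 (0.42, adjusted p = 0.0450). DKO cells also had 0 called members (background 1.82%) and 0 called by either count tool. At an unadjusted p below 0.05 there were 3 members, against 3229 of all 13052 genes. By adjusted p 2 members passed, against 13.1% of all genes. PPP1R15A had 30.4, 36.4 and 31.3 in DKO against 44.4 to 54.1 in WT cells and fell by 0.59 (adjusted p = 4.48e-05), and TRIB3 had 79.3, 73.4 and 70.7 and fell by 0.32 (adjusted p = 0.0196), lost in 3 of 6 fits without a library. CHAC1 had 6.86, 6.80 and 4.23 in DKO cells, which overlapped WT CTRL, at a log2 fold change of -0.39 (95% confidence interval -0.84 to 0.06). The direct comparison of untreated TFE3 KO with TFEB KO cells called CHAC1 (-1.54, adjusted p = 4.59e-07, background 4.05%). By adjusted p alone 6 of 10 members passed in either direction, against 29.9% of all genes. Besides CHAC1, TRIB3 (-0.59), VLDLR (-0.73), ATF5 (-0.64) and DDIT3 (-0.36, lost in 2 of 6 fits without a library) were lower in TFE3 KO cells. ATF4 (0.39) was higher in them.

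Under Torin the knockouts were compared with WT Torin. By adjusted p alone 3 (TFE3 KO), 2 (TFEB KO) and 3 (DKO) of 10 members passed, against 9.64%, 18% and 12.1% of all genes. In TFE3 KO cells CHAC1 had 2.33, 2.45 and 2.7 against 7.73 and 9.72 in WT and was called lower (-1.47, adjusted p = 3.43e-05, background 1.94%), and TRIB3 (-0.82, adjusted p = 2.94e-07) and CEBPB (-0.72, adjusted p = 6.07e-04) fell, the latter at an adjusted p of 0.0720 without WT Torin replicate 3. With the identical column added to WT Torin, 4 members were called in TFE3 KO and 3 in DKO cells, all lower. TFEB KO cells had 0 called members (background 2.44%, 0 by edgeR and by DESeq2), with ATF4 at -0.36 (adjusted p = 2.8e-04) and CEBPB at 0.49 (adjusted p = 0.0162). Here 3 members had an unadjusted p below 0.05, against 3970 of all 13052 genes. CEBPB lost the test without WT Torin replicate 2 (0.32, adjusted p = 0.275). DKO cells had 0 called members as well (background 2.37%), with 4 at an unadjusted p below 0.05, against 3333 of all 13052 genes. By edgeR and DESeq2 1 was called, CHAC1. It had 4.15, 5.12 and 3.54 in DKO cells and a log2 fold change of -0.89 (adjusted p = 0.0130), which was -1.03 without WT Torin replicate 2 and -0.74 (adjusted p = 0.170) without WT Torin replicate 3. TRIB3 (-0.48, adjusted p = 0.00182) and PPP1R15A (-0.42, adjusted p = 0.0120) were lower too, tests that were lost in 1 and 3 of 5 fits without a library.

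**Figure D4:**
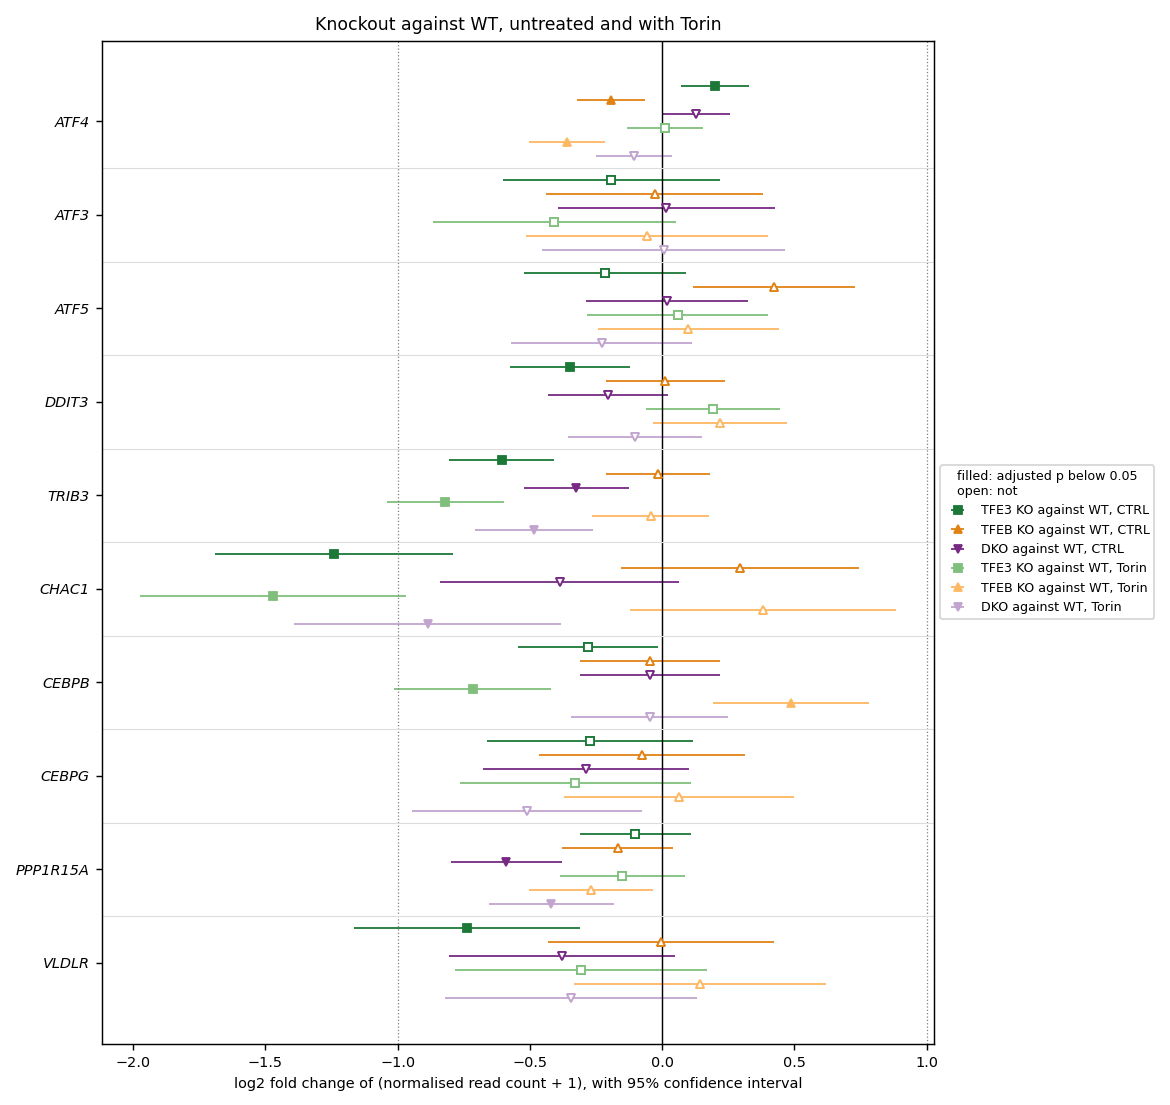
Log2 fold change with its 95% confidence interval of each member in TFE3 KO (green), TFEB KO (orange) and DKO cells (purple) against WT, in dark colours untreated and in light colours with Torin, filled where the adjusted p was below 0.05. CHAC1 in TFE3 KO cells lies left of -1 in both settings (-1.24 and -1.47), and all TFEB KO values lie between -0.36 and 0.49.

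A few target genes of the pathway were also lower in untreated TFE3 KO cells. PSAT1 (-3.98) and ASNS (-1.20), enzymes of serine and asparagine synthesis, were the 2 of 11 synthesis genes called lower, and NUPR1 (-3.98), a stress-induced chromatin protein, and SESN2 (-1.09) the 2 of 11 growth brake and survival genes. The medians of these lists were -0.44 and -0.40, against 0.00 for all genes. No tRNA charging or transporter gene was called in TFE3 KO cells. DKO cells had PSAT1 (-4.31), ASNS (-1.13), NUPR1 (-3.38) and SLC7A5 (-1.32), the large neutral amino acid carrier, called lower, and TFEB KO cells PSAT1 (-1.92). Of 18 ER folding and unfolded protein response genes 6 were called lower in TFE3 KO (median -0.85, against 1.33% of all genes called lower), 7 in DKO (median -0.88, against 1.18%) and none in TFEB KO cells (median 0.00, against 0.253%), with the ER chaperone HSPA5 (BiP) at -1.34 in TFE3 KO and -1.22 in DKO cells.

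With Torin the same lists had negative medians in WT cells, where 4% of all genes were called lower and 5.66% higher. Called lower were 5 of 11 synthesis genes (median -0.79), among them PSAT1 (-1.85), the mitochondrial folate enzyme MTHFD2 (-1.40) and ASNS (-1.29), 2 of 13 tRNA charging genes (median -0.50), YARS (-1.07) and MARS (-1.001), and 1 of 9 transporters (median -0.30), the glutamine carrier SLC1A5 (-1.06). Of 11 growth brake and survival genes 3 were called lower, led by PMAIP1 (-2.32) and NUPR1 (-1.60), and BBC3 was called higher (2.76). The ER list had 14 of 18 genes called lower (median -1.53), with SDF2L1 at -3.43, CRELD2 at -2.46 and MANF at -2.42. In the knockouts 10 (TFE3 KO), 12 (TFEB KO) and 9 (DKO) of these 18 were called lower, against 4.69%, 1.65% and 4.29% of all genes. The difference in response between TFE3 KO and WT was called for HSPA5 (1.07), SDF2L1 (1.09) and HERPUD1 (1.05), and that between DKO and WT for HSPA5 (1.17). HSPA5 fell with Torin by 2.24 in WT, 1.16 in TFE3 KO, 2.27 in TFEB KO and 1.07 in DKO cells.

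Across the 9 groups the order of the means placed WT HBSS first for all 10 members, against 23.1% of all genes, and for 9 of them both HBSS libraries were above all 23 others, against 14% of all genes. Below that place most neighbours overlapped. For ATF4 the means ran from 513 ± 19.8 (SD, n = 3) in TFE3 KO Torin through 509 ± 18.8 (SD, n = 2) in WT Torin, 473 ± 21.9 in DKO Torin, 452 ± 12.1 in TFE3 KO CTRL, 431 ± 18.4 in DKO CTRL, 397 ± 18.9 in TFEB KO Torin and 394 ± 11.1 in WT CTRL to 344 ± 16.1 in TFEB KO CTRL (SD, n = 3), and neighbours were apart only below DKO CTRL and below WT CTRL. TRIB3 was at 93.5 ± 4.89 (SD, n = 3) in WT CTRL and lowest in TFE3 KO Torin at 29.4 ± 2.39 (SD, n = 3). CHAC1 was lowest in the TFE3 KO groups, at 2.84 ± 0.827 untreated and 2.50 ± 0.191 with Torin (SD, n = 3), which overlapped each other. In PPP1R15A all 4 Torin groups, 71.9 to 96.4 in the mean, stood above all 4 untreated groups, 32.7 to 49.7, with no overlap between the lowest Torin library (67.5) and the highest untreated one (54.1), as in 5.94% of all genes. CEBPG (highest Torin library 10.5, lowest untreated one 12.2) and ATF5 (14.77 and 14.81) were separated in the other direction, as were 9.16% of all genes.

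For each member the genes whose pattern was most like it over the 25 libraries were listed by Pearson's r of log2(count + 1), which describes shared shape only, since the libraries fall into groups of the same treatment. TRIB3 was most like AARS (r = 0.974) and CARS (r = 0.968), the alanyl- and cysteinyl-tRNA synthetases, and these stayed at 0.944 and 0.909 over the 23 libraries without HBSS. CEBPG was closest to the small GTPase gene RAB7A (r = 0.960) and to MTHFD2 (r = 0.959), and PPP1R15A to the antiproliferative gene BTG1 (r = 0.955) and the pigment enzyme gene TYRP1 (r = 0.950), all of which kept 0.901 or more without HBSS. ATF4 was closest to ZFAND5 (r = 0.965) and ST7 (r = 0.945), which dropped to 0.731 and 0.549 without HBSS. ATF3 was nearest to MIR4458HG (0.924 and 0.648) and TAX1BP1 (0.922 and 0.670), and DDIT3 to FNBP1L (0.958 and 0.764) and TAX1BP1 (0.944 and 0.737), each given with and then without the starved libraries. The remaining pairs were CHAC1 with ZNF697 (0.933) and CDV3 (0.930), CEBPB with BCAR3 (0.936) and PHC2 (0.934), ATF5 with SLC11A2 (0.917) and CKAP4 (0.915), and VLDLR with ZNF704 (0.863) and CBL (0.854).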

How the data were processed

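Poly(A) RNA of 501mel cells was sequenced from the 3′ end (QuantSeq Forward). Per the labels, reads were trimmed with cutadapt 2.10, checked with FastQC 0.11.9 and aligned to hg38 with STAR 2.7.8a, and edgeR was used. The counter, annotation, scaling and filter are not given in the sources used here. The deposited values are a normalised signal per gene, and 100% of them were whole multiples (tolerance 0.01) of the worth of 1 read in their column, so that read counts were recovered. The 10 members, the gene lists and the rules were chosen with earlier results of these data known. The 13052 genes that reached 1 in 3 or more libraries were fitted in limma 3.58.1 (R 4.3.3) on log2(value + 1), with 1 mean per group over 25 libraries, a mean-variance trend and robust moderation. P-values were adjusted by Benjamini-Hochberg within each of 16 comparisons. Adding 1 understates the change of low genes. The scripts were tested on simulated data. Named genes were the members, up to 3 called genes with the largest change per list and comparison, and the 2 genes most like each member of mean 5 or more. Tried beside this were median-of-ratios scaling, a pseudocount of 0.1, a minimum of 5 or no minimum, edgeR 4.0.16 and DESeq2 1.42.0 on recovered reads, only the compared libraries, a replicate block, the identical column under either label, and each library left out. Intervals cover the spread between libraries.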

Additional observations from a re-analysis of the deposited data

Results flagged for a closer look

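The column deposited with identical values under HBSS replicate 3 and Torin replicate 1 entered none of the comparisons, and in it all 10 members were above the highest WT CTRL library. Its normalised read counts were 1635 for ATF4, 41.7 for ATF3, 30.1 for ATF5, 130 for DDIT3, 403 for TRIB3, 122 for CHAC1, 138 for CEBPB, 68.9 for CEBPG, 161 for PPP1R15A and 15.9 for VLDLR. All 10 values were also above the highest of the 2 WT Torin libraries. Against the 2 HBSS libraries 3 values lay within their range, 5 above and 2 (CEBPB and CEBPG) below. Over the whole table the column had 12917 genes detected, against 12895 and 12901 in HBSS and 13188 and 13181 in WT Torin. Labels alone set the groups, so no condition was assigned to the column from its values. No group had enough libraries for a test of single outlying libraries, and no member's response to Torin differed between a knockout and WT at an adjusted p below 0.05.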

How the results depend on the processing

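The count of called members in HBSS against WT CTRL was 8 under every alternative. With Torin in WT cells the count was 1 as reported and 2 with edgeR, with DESeq2 and with the identical column as Torin or under both labels. TFEB KO Torin against TFEB KO CTRL had 1 as reported, 2 with a pseudocount of 0.1, and 0 with median-of-ratios scaling and with the identical column as Torin or under both labels. With the identical column as Torin or under both labels, TFE3 KO against WT and against TFEB KO, both untreated, went from 1 to 0, TFE3 KO Torin against WT Torin from 1 to 4, and DKO Torin against WT Torin from 0 to 3, the last being 1 with a pseudocount of 0.1, edgeR or DESeq2. With each library left out, the counts were 0 to 2 for Torin in WT, 2 to 3 in TFE3 KO, 0 to 2 in TFEB KO and 2 to 3 in DKO cells, 7 to 8 for HBSS against Torin, and 0 to 1 for DKO Torin against WT Torin. Single values changed sign in 3 cases with the identical column as Torin or under both labels, to 0.15 for TRIB3 and 0.095 for CEBPB (WT Torin against CTRL) and to -0.21 for CEBPB (TFEB KO Torin against WT Torin). In these the added column supplies 1 of 3 Torin libraries. The cause of the other shifts was not tested. Small changes near the threshold were the least steady. VLDLR in HBSS against Torin lost the test with a pseudocount of 0.1, median-of-ratios scaling, edgeR and DESeq2, and ATF5 with Torin in TFE3 KO cells lost it with the latter 3.

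Replicate numbers did not pair the libraries. Deviations of same-numbered libraries correlated between -0.294 and 0.277 (median 0.0132, 92 pairs). Those of libraries with other numbers correlated between -0.263 and 0.366 (median -0.00536, 185 pairs). Of 25 libraries 11 correlated best with their own number. A replicate block left every count of called members at its value, moved VLDLR in HBSS against Torin to 0.55 (adjusted p = 0.0897) and ATF5 in TFEB KO against WT CTRL to 0.42 (adjusted p = 0.0472).

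Over all genes, called genes went from 237 to 375 (pseudocount 0.1) and 363 (edgeR) in DKO against WT CTRL, from 218 to 145 (minimum of 5) in TFEB KO against WT CTRL, and from 655 to 1025 (edgeR) with Torin in TFEB KO cells. With the minimum of 5 they went from 253 to 162, 318 to 190 and 309 to 194 in TFE3 KO, TFEB KO and DKO Torin against WT Torin. With the identical column as Torin they went from 1261 to 799 (Torin in WT), 2165 to 664 (HBSS against Torin), 253 to 410 and 309 to 530 (TFE3 KO and DKO against WT, Torin), and under both labels to 799, 595, 412 and 534. The differences in Torin response went from 36 to 22 (edgeR), 19 (DESeq2), 9 (identical column as Torin) and 16 (both labels) in TFE3 KO, from 27 to 1 (either) in TFEB KO, and from 21 to 9 with only the compared libraries in DKO. Depth limits CHAC1 most, at 2.03 to 3.68 in untreated TFE3 KO libraries against a floor of 0.460 to 0.711.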

Other observations

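Among 29 other bZIP genes, possible partners of ATF4 and the C/EBP proteins, 2 were called higher and 0 lower with Torin in WT cells (5.66% and 4% of all genes). The counts were 2 and 3 in TFE3 KO (6.98% and 4.69%), 1 and 0 in TFEB KO (3.36% and 1.65%), and 2 and 1 in DKO cells (6.83% and 4.29%). CEBPD, a C/EBP gene of the acute stress response, was called higher in TFE3 KO (1.45), TFEB KO (1.10) and DKO cells (1.31), and rose by 0.99 in WT cells. DBP was called higher in WT (1.38) and TFE3 KO cells (1.21), and JUN, a subunit of AP-1, in DKO cells (1.03). ATF6B, a relative of the ER stress sensor ATF6, was called higher in WT cells (1.33), and its response in TFEB KO cells differed from that by -1.16 (adjusted p = 0.0408). BATF3 was called lower in DKO cells (-1.06). The AP-1 subunit FOSL1 was called lower in TFE3 KO cells (-1.92), where its response differed from that in WT cells by -1.57 (adjusted p = 0.0404). MAFF, a small MAF protein, was lower than in WT Torin in TFE3 KO (-1.35) and DKO cells (-1.02). Of the eIF2 machinery, EIF2S1, the subunit that is phosphorylated in the stress response, was called lower with Torin in TFE3 KO (-1.20, adjusted p = 2.14e-17) and DKO cells (-1.14, adjusted p = 1.62e-16).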
